A study of Mus musculus with 2 samples.

Results

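The genes described here encode membrane carriers of 5 families, the facilitated sugar transporters (Slc2a), the sodium-coupled solute transporters (Slc5a), the monocarboxylate transporters (Slc16a), the organic cation, anion and zwitterion transporters (Slc22a) and the organic anion transporting polypeptides (Slco). They were chosen by a rule on gene symbols, set with earlier results of these data known, and 81 of the 32531 genes in the count tables matched. The families held 13, 13, 14, 26 and 15 rows in that order. Of these rows, 2 were not transporter genes, the pseudogenes Slc2a4rg-ps and Slc22a13b-ps. The RNA came from the cerebral cortex of untreated adult Gdnf-EGFP/Rpl10a (ES2243) mice, in which EGFP-tagged Rpl10a, a ribosomal protein, is made in cells that use the regulatory sequences of Gdnf. Tagged polysomes were purified with anti-EGFP antibodies and their RNA was sequenced (translating ribosome affinity purification). Both libraries, IP1 and IP2, were immunopurified samples and formed 1 group. No source used here says whether they came from separate animals, so their spread may only be technical. RNA of whole cortex was not analysed here, and the values are therefore levels, not enrichments.

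Gene counts summed to 65200231 in IP1 and 72732502 in IP2, and levels are given as CPM, a gene's count scaled to a common total per library. A count of 0 allows a true count of up to 3, or 0.046 CPM (IP1) and 0.041 CPM (IP2). That limit and every interval below cover counting error only, and reads without molecular identifiers are not independent molecules. Exon lengths were not used here, so CPM values serve to compare libraries and give no order of level among genes. The series title names pericytes as the profiled cells. All 10 mural markers examined (Rgs5, Pdgfrb, Kcnj8, Abcc9, Vtn, Higd1b, Anpep, Cspg4, Notch3 and Tbx18) reached 10 CPM in both libraries, and so did all 8 neuronal, all 7 oligodendrocyte and all 6 oligodendrocyte precursor markers. Of the precursor markers, Cspg4 is also on the mural list. The RNA was therefore not from mural cells alone by its markers. In such bulk samples, fewer cells of a type and less RNA per cell cannot be told apart.

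Solute carriers move small molecules across membranes. Slc2a proteins let hexoses move down their gradient, Slc5a proteins draw sugars, inositol, choline, iodide or vitamins inward with sodium, and several Slc16a proteins move lactate, pyruvate and ketone bodies with protons. Slc22a and Slco proteins carry charged metabolites, hormones and drugs, and are best known from kidney, liver and the barriers of the brain. At the blood-brain barrier the endothelial carriers Slc2a1, Slc16a1, Slco1a4, Slco1c1, Slco2b1 and Slc22a8 are textbook examples.

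The members with high counts were few and came from all 5 families. In both libraries 14 of 81 members (17.3%) reached 10 CPM, against 9207 of 32531 genes (28.3%), and 33 (40.7%) reached 1 CPM, against 13446 genes (41.3%). No read was counted for 22 members (27.2%), against 39.8% of all genes. The 59 members with at least 1 count had medians of 2.27 (IP1) and 1.88 CPM (IP2), below the 9.52 and 9.20 CPM of all 19580 such genes. By mean level the 14 members comprised 3 Slc2a, 3 Slc5a, 3 Slc16a, 4 Slc22a and 1 Slco genes. The 5 members with the largest CPM held 56.6% of the summed mean CPM of the 81.

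**Figure D1:**
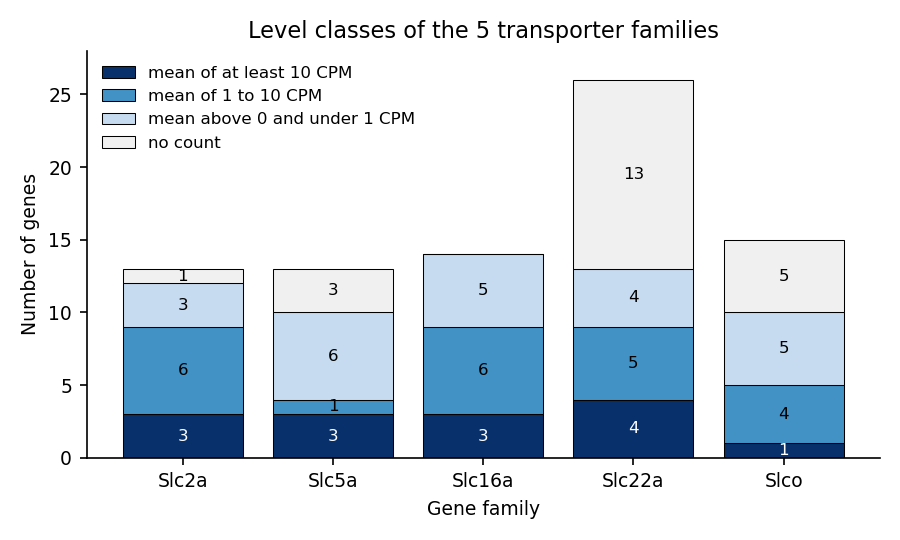
Stacked bars give the number of genes (y axis) of each transporter family (x axis) in 4 classes of mean CPM over the 2 libraries. Of 26 Slc22a genes 13 had no count, whereas all 14 Slc16a genes had at least 1.

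Promoter sequences of members that the results turn on are printed first, because the members with high counts included genes with CpG-rich and with CpG-poor starts. They are the 250 bases before the transcript start that the RefSeq promoter table uses for each gene (GRCm38.p6, the assembly of mm10), read 5′ to 3′ on the gene's strand. For Slc22a8 that start (8593182) lies 1928 bases inside the annotated gene span, so the stretch is within the gene as annotated. For Slc22a23 and Slc22a30 it lies 57 and 6 bases inside, and for the other 2 at the edge of the span. Slc22a8 (chr19:8592932-8593181, plus strand) and Slc22a6 (chr19:8617746-8617995, plus strand) are neighbours with high counts, and Slc22a30 (chr19:8405106-8405355, minus strand) is the nearest member beside them and had no count. Slc22a23 (chr13:34345219-34345468, minus strand) and Slc5a3 (chr16:92058072-92058321, plus strand) also had high counts. Capitals mark CpG dinucleotides and the letters GTTAAT.
Slc22a8: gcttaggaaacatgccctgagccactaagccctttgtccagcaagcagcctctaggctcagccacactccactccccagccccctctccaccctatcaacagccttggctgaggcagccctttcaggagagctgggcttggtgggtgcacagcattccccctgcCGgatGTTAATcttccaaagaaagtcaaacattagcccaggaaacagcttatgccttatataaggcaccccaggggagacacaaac
Slc22a6: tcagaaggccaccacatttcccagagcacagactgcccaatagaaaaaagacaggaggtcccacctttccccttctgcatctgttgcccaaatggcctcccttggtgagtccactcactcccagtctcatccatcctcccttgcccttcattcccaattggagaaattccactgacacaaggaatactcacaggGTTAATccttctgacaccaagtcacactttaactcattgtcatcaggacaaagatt
Slc22a30: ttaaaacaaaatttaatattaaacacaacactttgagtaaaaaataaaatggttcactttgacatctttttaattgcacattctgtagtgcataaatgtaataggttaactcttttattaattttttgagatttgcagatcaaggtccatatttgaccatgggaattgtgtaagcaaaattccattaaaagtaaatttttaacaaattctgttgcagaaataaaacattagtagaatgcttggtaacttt
Slc22a23: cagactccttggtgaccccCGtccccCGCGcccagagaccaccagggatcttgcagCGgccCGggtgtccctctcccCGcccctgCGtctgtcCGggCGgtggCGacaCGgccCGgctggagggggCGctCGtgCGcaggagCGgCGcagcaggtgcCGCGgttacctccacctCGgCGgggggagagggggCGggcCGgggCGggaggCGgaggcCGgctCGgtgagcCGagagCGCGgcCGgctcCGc
Slc5a3: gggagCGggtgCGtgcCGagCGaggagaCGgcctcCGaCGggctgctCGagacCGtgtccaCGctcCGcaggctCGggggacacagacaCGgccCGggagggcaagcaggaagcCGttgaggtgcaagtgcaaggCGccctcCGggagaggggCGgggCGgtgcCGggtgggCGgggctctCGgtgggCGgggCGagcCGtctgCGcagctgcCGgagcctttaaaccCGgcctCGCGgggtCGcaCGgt

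The printed stretches of Slc22a23 and Slc5a3 held 32 CpG each, that of Slc22a8 held 1, and those of Slc22a6 and Slc22a30 held 0. Over the full RefSeq windows, which run from 250 bases before to 50 bases after the start, 64 of 81 members had an entry. The 10 matched members with a mean of at least 10 CPM had a median of 14.5 CpG and ranged from 1 (Slc22a8 and Slc5a7) to 38 (Slc22a23 and Slc5a3). The 19 matched members with no count had a median of 1 and a highest value of 10. All genes followed the same order, with medians of 22 CpG in 7331 windows at 10 CPM or more and 2 in 4110 windows with no count, so this is not particular to the transporters. Of the 10 members, 3 (Slc22a8, Slc22a6 and Slc5a7) had fewer than 10 CpG, which was the case for 13.4% of the 7331 genes at that level.

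GTTAAT, a half-site of the hepatocyte nuclear factor HNF1, was searched on both strands of the windows. It was found 81 bases before the table's start of Slc22a8, which is the internal start described above, and 56 bases before that of Slc22a6. GTTAAT occurred in 7 of the 64 member windows (10.9%) and in 6.18% of all 17066 windows. Slc22a8 and Slc22a6 were 2 of the 10 matched members with a mean of at least 10 CPM. The letters were also in 2 of the 19 matched members with no count, Slc22a29, next to Slc22a30 on chromosome 19, and Slco1b2. Among all genes the shares in these 2 classes were 3.97% and 11.6%. Having these letters therefore did not separate members with high counts from members with none. TATAAA occurred in 10 member windows (15.6%, against 12.8% of all) and TGGAAA, the core of the tonicity element, in 15 (23.4%, against 19.9%). Neither TATAAA nor TGGAAA was in the windows of the 5 printed genes. Only these exact letters were searched, so variants such as TATATAAG in the printed stretch of Slc22a8 were not counted. A match is a description of these letters and not evidence that a factor binds there.

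**Figure D2:**
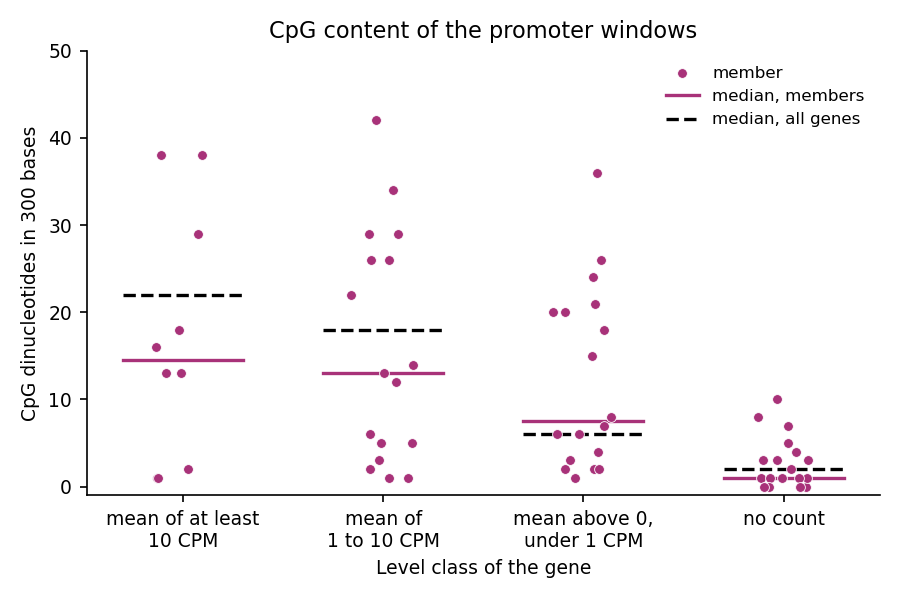
Points are the 64 members with a RefSeq promoter window, placed by level class (x axis) and by the number of CpG dinucleotides in 300 bases (y axis). Solid lines are the members' medians, from 14.5 at 10 CPM or more to 1 with no count, and dashed lines are the medians of all genes.

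Organic anion transporters gave the largest count of the set and 9 of its 22 rows with no count. Slc22a8 (chromosome 19, 8591254 to 8611835, mm10), the organic anion transporter OAT3 that takes up drugs and metabolites, was at 192 (IP1) and 158 CPM (IP2) (175 ± 24.2 CPM, SD, n = 2). Its neighbour Slc22a6 (8617996 to 8628299), the related carrier OAT1, was at 82.4 and 99.8 CPM (91.1 ± 12.3 CPM). The spans of both genes lie 6160 bases apart, and both overlap the annotated long noncoding RNA Gm36394, so part of their reads may not have been assigned. IP1 was the higher library for Slc22a8 and the lower one for Slc22a6.

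The same stretch of chromosome 19 holds 6 further members with gaps under 1 Mb, Slc22a19 and Slc22a26 to Slc22a30, and none of them had a count in either library. Between Slc22a30 and Slc22a8 lie 186142 bases. These rodent carriers are close relatives of one another, and multi-mapping reads were not assigned, which may leave such copies undercounted. Slc22a12, the urate transporter URAT1, was at 0.15 and 0.60 CPM, and Slc22a7, the liver carrier OAT2, was at 0.061 and 0.15 CPM. Of the 13 genes of the organic anion group, 2 reached 10 CPM, 2 stayed under 1 CPM and 9 had no count.

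Of the other Slc22a genes, an orphan carrier and a lipocalin receptor had the large counts. Slc22a23 (chromosome 13, 34179158 to 34345275), the orphan, was at 116 and 134 CPM (125 ± 12.8 CPM), and Slc22a17 (chromosome 14, 54906727 to 54913132), known as a receptor of lipocalin-2, was at 80.3 and 77.3 CPM (78.8 ± 2.16 CPM). The third orphan, Slc22a15, was at 8.76 and 4.29 CPM. Organic cation carriers were low. Slc22a3, the extraneuronal monoamine transporter OCT3, was at 2.93 and 1.31 CPM and Slc22a2 (OCT2) at 0.80 and 0.29 CPM. They are neighbours on chromosome 17, 76484 bases apart. Carriers of carnitine and zwitterions on chromosome 11 were also low. Slc22a4 was at 2.30 and 3.23 CPM, Slc22a5 at 2.48 and 1.92 CPM and their neighbour Slc22a21 at 2.56 and 0.78 CPM.

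Glucose entry was represented mainly by Slc2a3 and Slc2a1. Slc2a3 (chromosome 6, 122727809 to 122802363), the neuronal glucose transporter GLUT3, was at 53.6 and 60.8 CPM (57.2 ± 5.06 CPM). Slc2a1 (chromosome 4, 119108745 to 119137330), GLUT1 of the blood-brain barrier and astrocytes, was at 15.3 and 24.1 CPM (19.7 ± 6.23 CPM). The libraries were closer together for Slc2a3 than for Slc2a1, where IP2 exceeded IP1 1.58-fold. Slc2a4, the insulin-responsive GLUT4, was at 1.67 and 3.02 CPM. Slc2a2, the liver and islet isoform GLUT2, had 17 counts in IP1 and 0 in IP2. Among the remaining facilitators Slc2a13 (chromosome 15, 91267691 to 91573261), a proton-coupled myo-inositol carrier, was at 72.8 and 74.8 CPM (73.8 ± 1.37 CPM). The libraries were nearly equal for this gene. The others (Slc2a6, Slc2a8, Slc2a9, Slc2a10 and Slc2a12) had means from 1.16 to 2.71 CPM. Slc2a5, the fructose carrier GLUT5 known from microglia, had 38 counts in IP1 and 0 in IP2, and Slc2a7 had none. Microglial markers were low in both libraries, with 0 of 7 at 10 CPM and sums of 27.0 and 31.0 CPM.

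Sodium-coupled glucose uptake was close to absent from the counts, whereas its relatives for inositol, choline and iodide were present. Of 6 sodium-coupled sugar carriers, Slc5a1 (SGLT1), Slc5a2 (SGLT2) and Slc5a4b had no count, and Slc5a4a, Slc5a9 and Slc5a10 had at most 5 counts in a library. Slc5a3 (chromosome 16, 92058322 to 92087473), the sodium/myo-inositol cotransporter, was at 54.4 and 85.9 CPM (70.1 ± 22.3 CPM). Its span overlaps the protein-coding gene Mrps6, which leaves part of its reads uncertain. A second inositol carrier, Slc5a11, was at 0.83 and 0.80 CPM. Slc5a5 (chromosome 8, 70882885 to 70892785), the sodium/iodide symporter best known from the thyroid, was at 19.6 and 21.2 CPM (20.4 ± 1.18 CPM), with 1275 and 1544 counts and no RefSeq gene overlapping its span. Slc5a7 (chromosome 17, 54273590 to 54299038), the high-affinity choline transporter of cholinergic neurons, was at 12.2 and 21.1 CPM (16.6 ± 6.34 CPM). IP2 was the higher library for Slc5a3, Slc5a5 and Slc5a7. Slc5a6, the multivitamin carrier, was at 3.22 and 4.32 CPM.

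Among the Slc16a genes the largest counts belonged to a creatine carrier, not to a lactate carrier. Slc16a12 (chromosome 19, 34668401 to 34747493), known as MCT12, was at 38.6 and 44.1 CPM (41.3 ± 3.91 CPM). It was 1.14-fold higher in IP2. Of the 4 proton-linked lactate carriers, Slc16a7 (chromosome 10, 125219270 to 125389586), the high-affinity neuronal isoform MCT2, was at 14.1 and 21.6 CPM (17.9 ± 5.28 CPM). Slc16a1, the widespread isoform MCT1, was at 6.03 and 9.09 CPM (7.56 ± 2.16 CPM). The isoform of glycolytic cells and astrocytes, Slc16a3 (MCT4), had 10 and 19 counts, and Slc16a8 (MCT3), known from retinal pigment epithelium, 7 and 22. The aromatic amino acid carrier Slc16a10 was at 0.25 and 0.15 CPM, and Slc16a9 had the largest mean (5.20 CPM) of the 7 other family members.

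Of the organic anion transporting polypeptides, only Slco3a1 reached 10 CPM in both libraries. Slco3a1 (chromosome 7, 74275418 to 74554780), a widely expressed family member, was at 67.2 and 96.0 CPM (81.6 ± 20.4 CPM). Slco5a1, an orphan, was at 6.07 and 11.0 CPM, and Slco1c1, a thyroxine carrier of the blood-brain barrier and astrocytes, at 5.84 and 9.36 CPM. IP2 was the higher library for all 3. Slco2b1 was at 2.87 and 3.70 CPM and Slco1a4, another barrier carrier, at 1.66 and 1.31 CPM. Slco1c1 and Slco1a4 lie in a run of 6 Slco1 genes on chromosome 6. The other 4 of that run, Slco1b2, Slco1a1, Slco1a6 and Slco1a5, are known from liver, kidney or choroid plexus and had no count. The testis genes Slco6b1 and Slco6c1 had 1 count each and Slco6d1 none. Members without a count numbered 22 in all (13 Slc22a, 5 Slco, 3 Slc5a and 1 Slc2a). Of these, 12 overlap another annotated gene, which could leave reads unassigned, 9 do not, and Slc22a13b-ps had no position. Such overlap was also found for 42 of all 81 members and for 9 of the 14 with a mean of at least 10 CPM.

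**Figure D3:**
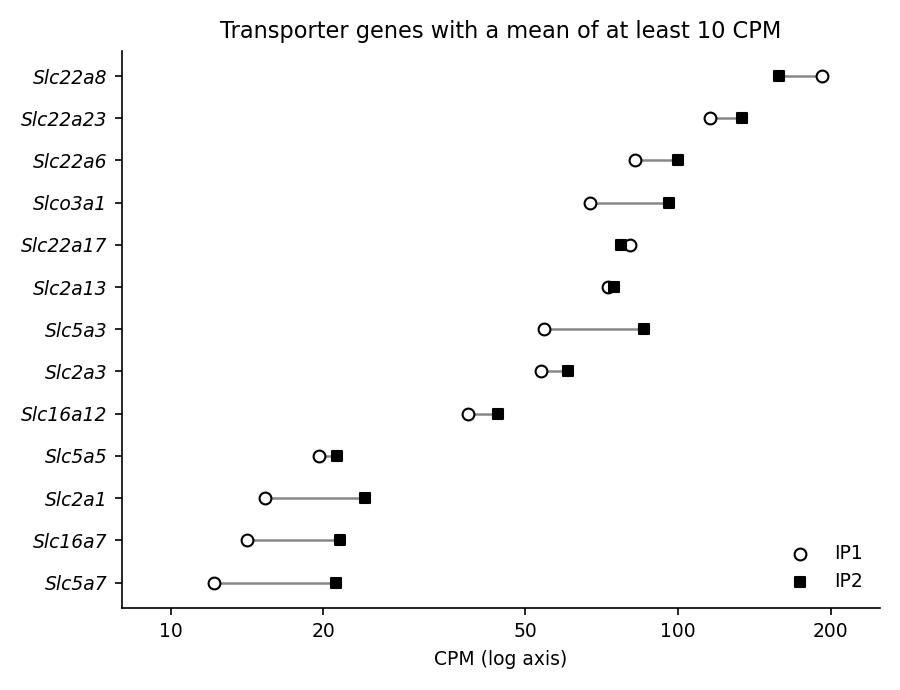
CPM (log x axis) of 13 of the members with a mean of at least 10 CPM (y axis), with IP1 as open circles, IP2 as filled squares and a line joining each pair. IP2 lies to the right for 11 of the 13, and Slc22a8 and Slc22a17 are the exceptions.

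All 6 barrier carriers named above were counted in both libraries. Slc22a8 had 192 and 158 CPM, and the other 5 had means from 1.48 CPM (Slco1a4) to 19.7 CPM (Slc2a1), with no correction for length. Of 14 endothelial markers outside the carrier families, 3 (Emcn, Itm2a and Mfsd2a) reached 10 CPM in both libraries, and their summed level was 122 (IP1) and 154 CPM (IP2). Flt1 (9.89 and 12.03 CPM), Esam (9.54 and 15.4 CPM) and Cdh5 (6.83 and 11.0 CPM) were clearly counted. Among defining endothelial genes, Cldn5 (0.077 CPM in IP1 and 0 in IP2) and Pecam1 (0.18 and 0.49 CPM) were at or near 0. Markers of mural cells summed to 6495 and 6337 CPM. Most of these sums was Rgs5 (4841 and 4061 CPM), and the median log2 ratio (IP2 over IP1) of the 10 mural markers was 0.57.

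Markers of meningeal and perivascular fibroblasts were also examined, because organic anion carriers are known from the cell layers that cover the brain. Of 12 such markers, 10 reached 10 CPM in both libraries, and their sum was 3857 (IP1) and 5264 CPM (IP2). Of these sums Apod, which oligodendrocytes also express, gave 1712 and 2446 CPM, and Pdgfra, which precursors of oligodendrocytes share, gave 326 and 632 CPM. Other markers on the list were Igf2 (831 and 1133 CPM), Aldh1a2, which makes retinoic acid (586 and 551 CPM), and Dcn (206 and 236 CPM). Slc6a13, a GABA and taurine carrier, was at 62.5 and 64.0 CPM. Slc47a1, an efflux carrier of the same layers, was at 0.32 and 0.041 CPM and Dpp4 at 2.68 and 0.59 CPM. Choroid plexus markers summed to 23.2 and 30.6 CPM, with Kl at 19.4 and 25.0 CPM, Ttr at 0.061 and 0.51 CPM and no count for Kcne2. The part of any of these cell types in the counts of Slc22a8 and Slc22a6 was not tested.

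**Figure D4:**
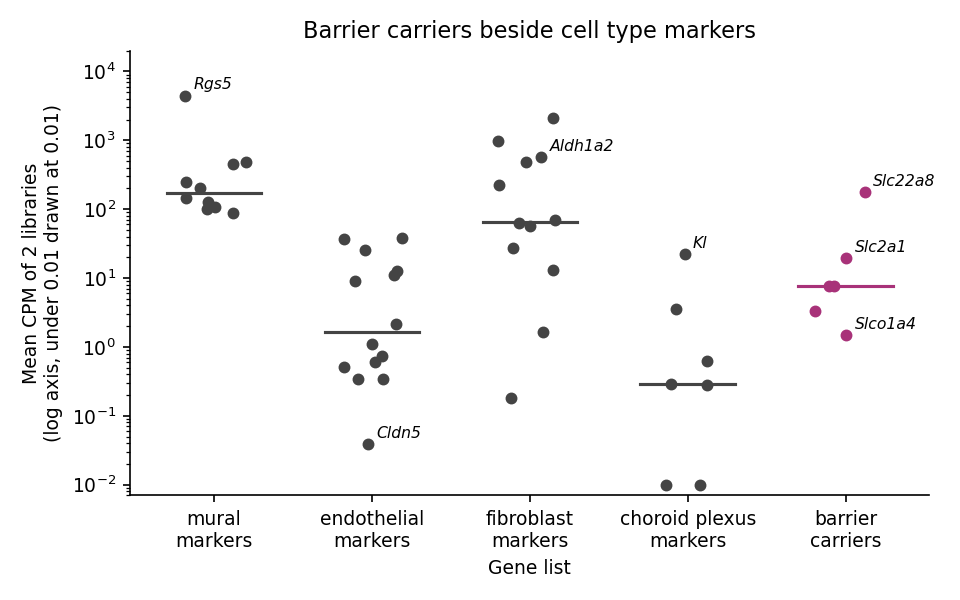
Mean CPM of the 2 libraries (log y axis, values under 0.01 drawn at 0.01) for 4 lists of marker genes and for the 6 barrier carriers (x axis), with lines at the medians. Slc22a8 is drawn at 175 CPM and the other carriers between 1.48 and 19.7 CPM, and positions of different genes carry no correction for length.

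Genes that work with these carriers were counted from 10 lists that held 72 genes, of which 71 had a row. In both libraries 40 of the 71 (56.3%) reached 10 CPM, against 28.3% of all genes, and 4 (5.63%) had no count, against 39.8%. The lists were chosen with earlier results of these data known, so these shares are no result about partners of carriers. Of the lactate list, 6 of 8 reached 10 CPM, with the lactate dehydrogenase genes Ldhb (347 and 352 CPM) and Ldha (319 and 275 CPM) and Nptn (132 and 138 CPM), which with Bsg (102 and 144 CPM) and Emb (9.82 and 9.84 CPM) encodes the chaperones that bring monocarboxylate carriers to the membrane. For glucose entry it was 5 of 9, with Txnip, an inhibitor of glucose uptake, at 76.7 and 93.1 CPM, Pfkfb2 at 63.3 and 66.7 CPM, the hexokinase gene Hk1 at 61.4 and 58.6 CPM and no count for Hk3. The inositol list had 4 of 7, led by Nfat5 (306 and 278 CPM), the tonicity-responsive factor, with the taurine carrier Slc6a6 at 87.3 and 80.8 CPM and Isyna1, which makes inositol, at 74.5 and 76.0 CPM.

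Of the thyroid hormone genes, 5 of 9 reached that level, among them Klf9 (299 and 432 CPM), a hormone-responsive gene, the receptor gene Thra (219 and 197 CPM) and Dio2 (112 and 175 CPM), which activates thyroxine. All 4 creatine genes did, with the synthetic enzyme Gatm at 744 and 631 CPM, brain creatine kinase Ckb at 400.0 and 418 CPM and the plasma membrane creatine carrier Slc6a8 at 148 and 164 CPM. Partners of organic anion transport reached it in 3 of 8 cases, with the dicarboxylate carrier Slc13a3 at 37.0 and 49.8 CPM, Abcc5 at 16.9 and 16.3 CPM and the efflux pump Abcg2 at 13.6 and 16.8 CPM. Slc13a3 supplies dicarboxylates, which Slc22a6 and Slc22a8 exchange for their substrates in kidney.

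Prostaglandin genes had 3 of 7, namely Ptgds (737 and 1164 CPM), Ptgr2 (117 and 80.8 CPM) and Ptges (15.0 and 17.2 CPM), whereas the prostaglandin carrier Slco2a1 was at 0.37 and 1.37 CPM. For carnitine it was 3 of 6, which were Crat (65.1 and 60.1 CPM), Cpt1a (64.2 and 56.3 CPM) and Slc25a20 (48.0 and 65.0 CPM). Of the choline genes 4 of 6 did, with Slc44a1 at 97.7 and 140 CPM, Slc44a2 at 38.7 and 60.6 CPM and Chka at 43.0 and 43.7 CPM. The cholinergic genes Chat (4.25 and 5.99 CPM) and Slc18a3 (2.24 and 7.81 CPM) were higher in IP2, as was Slc5a7. Of the monoamine genes 3 of 7 did, among them Maoa (47.3 and 45.0 CPM) and Maob (21.9 and 23.8 CPM), enzymes that degrade monoamines.

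Each of the 14 members whose mean reached 10 CPM differed by less than 2-fold between the libraries. Among all 9656 genes at that level 0.973% were at least 2-fold higher in IP2 and 0.549% in IP1. Of these 14, 10 (71.4%) differed by no more than 1.5-fold, against 89.0% of the 9656 genes. Slc5a7 (1.74-fold), Slc5a3 (1.58-fold), Slc2a1 (1.58-fold) and Slc16a7 (1.53-fold) were the exceptions, all higher in IP2. IP2 was the higher library for 12 of the 14, and the median of their log2 ratios (IP2 over IP1) was 0.24, against -0.03 for the 9656 genes. The libraries also differed in marker genes. Astrocyte markers summed to 1882 (IP1) and 2963 CPM (IP2), with a median log2 ratio of 0.81 over 9 genes. That median was 0.57 for the 10 mural, 0.49 for the 6 oligodendrocyte precursor and 0.32 for the 7 oligodendrocyte markers. It was 0.29 for the 12 fibroblast, 0.28 for 13 endothelial, 0.11 for 7 microglial and 0.53 for 5 choroid plexus markers. For the 8 neuronal markers it was -0.02, and the sum of 15836 and 13700 CPM was mostly Snap25 (12770 and 10795 CPM). The part of these markers in the members' ratios was not tested.

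**Figure D5:**
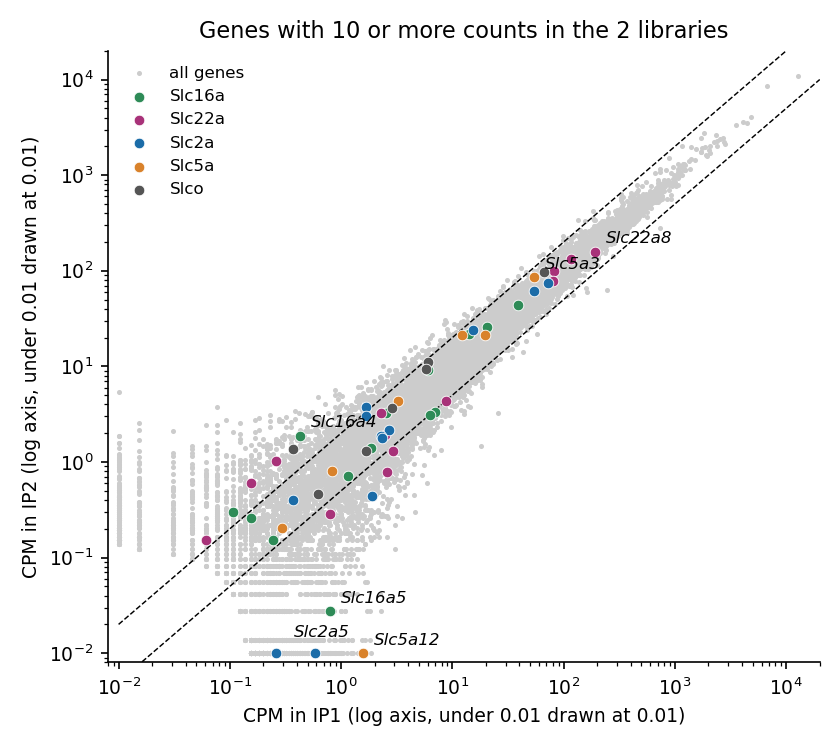
CPM in IP2 against CPM in IP1 (log axes, values under 0.01 drawn at 0.01) for genes with 10 or more counts, all genes in grey and the 53 members coloured by family, with dashed lines at a 2-fold difference. The 18 members on or outside the dashed lines all have a mean under 10 CPM.

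Differences of 2-fold or more were found only among members with low counts. With 1 library against 1 there is no replicate check, so a difference was called by its size alone, among genes with at least 10 counts in total. By that rule 7 of 53 members (13.2%) were higher in IP2, against 7.25% of 17306 genes, and 11 (20.8%) were higher in IP1, against 11.4%. All 18 had a mean under 10 CPM. At that level 17.9% of 39 members were called towards IP2, against 15.2% of 7650 genes, and 28.2% towards IP1, against 25.1%. The members' shares were thus near the background of genes with low counts. For 9 of the 18, the 95% exact binomial interval of the ratio reached down to 2 or lower. It lay above 2 for 6, and 3 had no count in IP2.

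Of the 53 members with at least 10 counts, 3 (5.66%) had no count in IP2, namely Slc5a12, Slc2a5 and Slc2a2, against 2.28% of 17306 genes, and 0 had none in IP1, against 0.977%. Among those with a mean under 10 CPM the share without a count in IP2 was 7.69% of 39 members and 5.15% of 7650 genes. Slc5a12, a sodium-coupled lactate carrier of kidney and intestine, had 103 counts in IP1. Scaled to library size, that level was 38.3-fold the limit of 3 counts in IP2. The levels of Slc2a5 and Slc2a2 in IP1 were 14.1-fold and 6.32-fold that limit. These 3 values leave out the counting error of IP1, unlike the intervals given for other genes. Slc16a5, a carrier known to move bumetanide, had 52 and 2 counts (29.0-fold higher in IP1, 95% interval 7.64 to 246). These counts were small in number and the libraries had similar depth.

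Slc2a6, a lysosomal facilitator (123 and 32 counts, 4.29-fold higher in IP1, 2.89 to 6.54), and Slc22a21 (167 and 57 counts, 3.27-fold, 2.41 to 4.50) were the other members whose interval lay above 2 on the IP1 side. On the IP2 side these were Slc16a4, an orphan (28 and 137 counts, 4.39-fold higher in IP2, 2.90 to 6.84), the imprinted gene Slc22a18 (17 and 74 counts, 3.90-fold, 2.28 to 7.05) and Slco2a1 (24 and 100 counts, 3.74-fold, 2.37 to 6.10). The intervals of the rest included 2. Towards IP1 these were Slc22a2 (2.76-fold), Slc22a3 (2.24-fold), Slc16a9 (2.10-fold), Slc22a15 (2.04-fold) and Slc16a14 (2.001-fold). Towards IP2 they were Slc22a12 (3.94-fold), Slc16a8 (2.82-fold), Slc22a7 (2.47-fold) and Slc2a8 (2.27-fold). The interval of Slc22a7 (4 and 11 counts, 0.73 to 10.6) also included 1, that is, no difference. That of Slc16a8 (7 and 22 counts) was 1.16 to 7.81. Slc16a14 and Slc22a15 fell under 2-fold when library sizes were scaled by TMM (trimmed mean of M-values) or DESeq2 size factors. Slc16a14 also did so when the gene Rn45s was left out of the totals.

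Partner genes were called by the same rule as the transporter genes. Of 66 with at least 10 counts, 4 were at least 2-fold higher in IP2 (Dio3, Ttr, Slc18a3 and Slc6a3) and 4 in IP1 (Hk2, Abcc4, Slc47a1 and Bbox1), against the same 7.25% and 11.4% of all genes. The hexokinase gene Hk2 was at 3.24 (IP1) and 0.56 CPM (IP2), and the efflux pump gene Abcc4 at 3.47 and 1.62 CPM. All 8 had a mean under 10 CPM, like the called transporter genes. At that level 15.2% of 7650 genes were called towards IP2 and 25.1% towards IP1. The share of partner genes at that level was not computed.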

How the data were processed

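Ribosome-bound RNA of the mouse cerebral cortex was sequenced in 2 immunopurified libraries. The authors deposited raw read counts per gene symbol, 1 file per library with no header. Per the submitters' processing notes, STAR version 2.0.0e, HTSeq and the mm10 build were used. Neither the annotation nor the strandedness of counting is stated there, so reads of overlapping antisense genes cannot be told apart. Summary lines and a row named unknown (1 read in IP1, 0 in IP2) were left out. Reads in genes were 58.1% and 57.7% of all listed reads, and reads aligned to several places were 31.2% and 31.5%. IP1 and IP2 did not hold identical values, and their counts over 17306 genes differed (chi-square per degree of freedom, 88.9). Reads are not independent molecules, so this does not show whether the libraries are separate biological samples.

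CPM was computed on the total of all gene counts. Values are per library or mean ± SD (n = 2). Ratios are given as log2 with a prior of 0.5 counts, or as folds with exact binomial intervals, and no p-value was computed for 1 group of 2 libraries. The procedure was tested on simulated data with counting error only and on genes with high expected counts. That test does not cover other spread between the libraries or the members with low counts. Every member with a mean of at least 10 CPM, every member called at 2-fold, the highest member of each of 16 subgroups and the 3 highest genes of each partner list were named; further genes were named after their values were seen. Some genes that this rule names are not reported here. The members, lists and motifs were chosen with earlier results of these data known. Positions, for 80 members, and promoter windows, for 64, came from RefSeq tables of GRCm38.p6. Alternatives were other library sizes, count filters, a fold of 1.5 and leaving out each library. Computation used Python 3.11.15, pandas 2.3.3, scipy 1.17.1, R 4.3.3, edgeR 4.0.16 and DESeq2 1.42.0.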

Additional observations from a re-analysis of the deposited data

How the results depend on the processing

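The count of members at 10 CPM in both libraries was 14 under all 3 other scalings, and 14 to 15 with either library left out. The count at 1 CPM was 33 under the scalings and 36 to 37 with 1 library. The median CPM of members was 1.88 to 2.27 with 1 library left out and 0.64 without a filter on counts, which adds the genes at 0. Members at least 2-fold higher in IP2 numbered 7, but 11 with a minimum of 1 count, 3 with a minimum of 100 counts and 16 at a fold of 1.5. Those higher in IP1 numbered 11, but 7 with a minimum of 100 counts, 10 with totals that left out Rn45s, and 9 with TMM or DESeq2 sizes. All 16 called under TMM or DESeq2 sizes were among the 18. The median log2 ratio of the 53 members was 0.12, and it was 0.17 with TMM sizes, 0.17 with DESeq2 size factors, 0.18 with a minimum of 1 count and 0.19 with a minimum of 100. Those 2 scalings moved every ratio by 0.053 and 0.055 on the log2 scale. No paired analysis was possible because the series has a single group of 2 libraries. A level per exon length was not run, as no exon lengths were used here. Depth limits the low members, since a gene with no count could have reached 0.046 CPM in IP1.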
